A study of Mus musculus with 11 samples.

Results

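SAGA, ATAC, TFIID and Mediator are large protein complexes through which RNA polymerase II is brought to promoters. The transcript levels of 58 of their subunits were followed in RNA-seq libraries of mouse cells that had or lacked functional Atxn7l3. The members were chosen by gene name: the rows of both deposited count tables that carry the symbol of a SAGA or ATAC subunit outside the deubiquitinase (DUB) module, a TFIID subunit or a Mediator subunit. All 58 were listed in both tables, among 34570 genes listed in either table and 26398 listed in both. By their known place, 8 members belong to SAGA only, 4 to SAGA and ATAC, 5 to ATAC only, 4 to SAGA and TFIID, 12 to TFIID only and 25 to Mediator.

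Poly(A) RNA was sequenced in 11 libraries of the strain DBA/2 x C57BL/6. Mouse embryonic stem cells (mESCs) were grown from single E3.5 blastocysts and gave 2 Atxn7l3+/+ libraries (WT) and 3 Atxn7l3-/- libraries (KO). They were kept without feeders, after a few passages on them, in serum medium with LIF and the inhibitors PD0325901 and CH99021. Mouse embryonic fibroblasts (MEFs) were prepared from E10.5 embryos without head and gut, were kept in serum medium without LIF or inhibitors, and gave 3 WT libraries and 3 libraries labelled KO. The embryos came from crosses of heterozygous mice in which a floxed Atxn7l3 allele had been deleted through the germline, so the KO cells carried the null allele from the start of development. Both cultures are unsorted, and the MEF cultures hold whatever cell types the embryo's trunk gave.

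SAGA carries an acetyltransferase module, a DUB module, a binding subunit for activators and a core built in part of TBP-associated factors (TAFs). ATXN7L3 is the adaptor that the ubiquitin protease of the DUB module needs for its activity on ubiquitylated histone H2B, and it belongs to none of the other modules. ATAC shares the acetyltransferases KAT2A and KAT2B with SAGA and combines them with its own subunits. TFIID, made of TBP and a set of TAFs, recognises core promoters and starts the assembly of the pre-initiation complex. Mediator passes signals from activators to RNA polymerase II through a head, a middle and a tail module, to which a kinase module can bind. Several of these subunits have a paralogue that takes the same place in the complex, such as KAT2A and KAT2B, TAF4 and TAF4B, or MED13 and MED13L.

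Levels are given as CPM, a gene's counts relative to the library's total, adjusted by the trimmed mean of M-values (TMM) over the genes of both tables, so that all 11 libraries are on 1 scale. The libraries held 34515342 to 49602605 counts, and 3 counts equal 0.0605 to 0.0869 CPM. Log2 fold changes, their standard errors (SE) and adjusted p-values come from the quasi-likelihood test of edgeR, adjusted over all genes tested by the Benjamini-Hochberg method, and a gene is called changed at an adjusted p of 0.05 or less. These p-values measure the spread between the 11 libraries, from which the study had left out a further WT mESC dataset. In unsorted cells, fewer cells of a type and less RNA per cell cannot be told apart. Atxn7l3 itself had 196 and 202 CPM in the WT mESC libraries and 3.33, 1.6 and 0.831 CPM in the KO mESC libraries. In MEFs it had 86.4, 117 and 104 CPM in the WT libraries and 56.4, 55.3 and 73.2 CPM in the libraries labelled KO, a difference of −0.74 ± 0.21 (SE, log2) with an adjusted p of 0.0715. All KO libraries were below all WT libraries in both cell types. Counts per gene do not show which exons carry the reads, so they do not tell whether the MEF reads come from a functional transcript.

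Markers of other cells moved with the label in MEFs. Of 4 mesothelial markers 3 (Upk3b, Msln and Wt1) were called higher, and the summed level of the list was 12.9 to 35.1 CPM in WT libraries and 2506 to 3689 CPM in those labelled KO. Ddx4, the 1 of 3 germ cell markers that was tested, was called higher (sum of the list 0.529 to 1.40 against 94.1 to 348 CPM). Krt18 was the 1 of 3 tested epithelial markers called higher (sum 1.00 to 2.90 against 6.89 to 35.3 CPM). Tfcp2l1 was the 1 of 4 tested mESC markers called higher, at 1.07 to 1.56 CPM in WT and 27.2 to 75.1 CPM in labelled KO libraries. The sum over 6 mESC markers was 43.9 to 99.4 against 52.2 to 98.7 CPM. Sox10 was the 1 of 2 tested neural markers called lower (sum 35.3 to 159 against 0.562 to 32.8 CPM). Of 9 fibroblast markers 0 were called, with sums of 20788 to 55888 and 33975 to 52485 CPM. Of the 3 endothelial (4.02 to 76.1 against 1.48 to 9.83 CPM) and 4 macrophage markers 0 were called as well. The macrophage sum covers the 2 markers listed in both tables (97.9 to 209.9 against 73.3 to 391 CPM). At an unadjusted p under 0.05 there were 1 fibroblast, 2 endothelial and 0 macrophage markers. The mESC libraries summed to 3362 to 4061 CPM over the 6 mESC markers listed in both tables. In mESCs 1 fibroblast marker and 1 epithelial marker were called higher and 1 neural marker lower. The part of these cells in the values below was not tested.

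In mESCs, 1 of the 58 members changed with the loss of Atxn7l3. Med6, a subunit of the Mediator head, fell from a mean of 31.7 ± 4.37 CPM (SD, n = 2) to 14.0 ± 2.61 CPM (n = 3). This is 1.72% of the members, against 6.96% of the 17800 genes tested that were called, 3.08% higher and 3.88% lower. The study's thresholds also ask for at least a 2-fold change and more than 10 normalised reads per kb. Applied here to the edgeR p-values, where the study used DESeq2, they called the same 1 member and 4.68% of all genes. At an unadjusted p under 0.05 there were 19 members. DESeq2 called 9 of the 58 members, 1 higher and 8 lower. Of the 17800 genes tested it called 3436, 1752 higher and 1684 lower. The median log2 fold change of the members was −0.21, against 0.04 for all genes tested, and 23 of 58 were above 0.

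Med6 (ENSMUSG00000002679, mm10 chr12:81573557-81595008) had 28.6 and 34.8 CPM in the WT mESC libraries. In the KO mESC libraries it had 11.6, 16.8 and 13.7 CPM. Every KO library was below both WT libraries, at a log2 fold change of −1.13 ± 0.25 (SE) and an adjusted p of 0.0415. With 1 library left out, Med6 was called only without KO replicate 2 (adjusted p = 0.0355) and not without any other library (adjusted p up to 0.272). Without either WT library no gene of the whole table was called, so those 2 fits say nothing of Med6.

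The SAGA-only members leaned lower in KO mESCs without passing the test. Their median log2 fold change was −0.46, 6 of 8 were below 0 and 0 were called (3 at an unadjusted p under 0.05, and 2 by DESeq2). Supt7l, a histone-fold subunit of the core, had 33.2 and 30.3 CPM in WT and 14.4, 22.5 and 12.3 CPM in KO libraries (−0.91 ± 0.29, adjusted p = 0.0904). Tada2b, the adaptor particular to the SAGA acetyltransferase module, had 22.4 and 17.6 CPM in WT and 8.8, 17.4 and 5.17 CPM in KO libraries (−0.91 ± 0.47, adjusted p = 0.235). In Supt7l the groups were well apart, whereas KO replicate 2 of Tada2b nearly reached the lower WT library. Taf5l, the SAGA paralogue of TAF5, had 58.4 and 81.3 CPM against 34.8, 37.3 and 43.9 CPM (−0.80 ± 0.22, adjusted p = 0.0677) and was called where log2 levels were corrected for GC content (−0.97, adjusted p = 0.0408). At the other end stood Supt20, a core subunit needed for SAGA assembly, with 101 and 108 CPM in WT and 113, 127 and 174 CPM in KO libraries (0.45 ± 0.24, adjusted p = 0.238). Trrap, the large activator-binding subunit, had 238 and 224 CPM in WT and 192, 224 and 218 CPM in KO libraries, which met at 224 CPM.

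Among the ATAC members, 0 of 9 were called in mESCs by edgeR or DESeq2, and 2 had an unadjusted p under 0.05. Kat2b, an acetyltransferase shared with SAGA, had 91.3 and 87.4 CPM in WT and 48.5, 72.3 and 49.2 CPM in KO libraries (−0.61 ± 0.22, adjusted p = 0.112). The KO libraries all lay under the WT ones. Its paralogue Kat2a had 175 and 192 CPM in WT and 204, 150.1 and 145 CPM in KO libraries, with KO values on both sides of the WT values (−0.09 ± 0.22, adjusted p = 0.812). Zzz3, a subunit found in ATAC only, had 102 and 103 CPM against 65.6, 83.5 and 76.1 CPM (−0.40 ± 0.18, adjusted p = 0.18). Mbip, another ATAC subunit, was lowest of the ATAC-only members at −0.43 ± 0.27 (adjusted p = 0.316), and Sgf29, the reader of methylated histone H3 in both complexes, was highest at 0.21 ± 0.20 (adjusted p = 0.519).

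The 12 TFIID-only members had a median of −0.30 in mESCs, with 9 below 0 and 0 called (4 at an unadjusted p under 0.05, and 1 by DESeq2). Taf4, a TAF in the lobes of TFIID, was the lowest, with 55.1 and 52.4 CPM in WT and 33.0, 38.3 and 33.2 CPM in KO libraries (−0.58 ± 0.19, adjusted p = 0.0947). Taf7, which binds TAF1, had 209 and 193 CPM against 123, 167 and 157 CPM (−0.39 ± 0.20, adjusted p = 0.229). Both had all KO libraries under the WT libraries. Taf13, a histone-fold TAF, was the highest TFIID-only member, with 10.4 and 12 CPM in WT and 15.5, 12.4 and 13.2 CPM in KO libraries (0.34 ± 0.29, adjusted p = 0.455). Tbp, the TATA-binding protein, had 43.4 and 48.0 CPM against 33.2, 33.9 and 35.6 CPM (−0.37 ± 0.19, adjusted p = 0.242). Of the 4 TAFs shared by SAGA and TFIID 0 were called by edgeR or DESeq2, 0 had an unadjusted p under 0.05, and 0 had KO libraries all on one side of the WT libraries.

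Mediator members had a median of −0.04 over 25 in mESCs, and Med6 was the 1 called. At an unadjusted p under 0.05 there were 10, and DESeq2 called 1 higher and 5 lower. All KO libraries were below WT in 10 of the 25 and above WT in 2. The 7 middle members had a median of −0.50, and the 7 head members, Med6 among them, a median of 0.07. Med1, the middle subunit that binds nuclear receptors, had 155 and 162 CPM in WT and 73.4, 105 and 48.7 CPM in KO libraries (−1.03 ± 0.29, adjusted p = 0.0692). Med13, a kinase module subunit that links it to the core of Mediator, had 198 and 191 CPM against 129.6, 128 and 97.0 CPM (−0.67 ± 0.19, adjusted p = 0.0745). In both genes no KO library reached a WT library. Med26, which binds elongation factors, was lower in the KO libraries as well, at 28.3 and 27.6 against 17, 16.5 and 18.6 CPM (−0.64 ± 0.23, adjusted p = 0.115). Med23 was the lowest tail member, at −0.50 ± 0.18 (adjusted p = 0.118), and Med27 the highest, at 0.40 ± 0.24 (adjusted p = 0.3). Med20 was the highest head member at 0.51 ± 0.29 (adjusted p = 0.281), and Med10 the highest middle member at 0.30 ± 0.26 (adjusted p = 0.472).

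Counted without a model, on the normalised levels of the mESC libraries alone, 26 of 58 members (44.8%) had all KO mESC libraries below all WT libraries, against 25.1% of all genes tested. All KO libraries were above the WT libraries in 6 members (10.3%), against 24.6% of all genes. These counts describe the direction of small differences, of which 1 passed the test. Leaving out KO replicates 1 and 2, in which 4 Y-linked genes were low, left KO replicate 3 alone. The median log2 fold change of the members was then −0.27, against −0.05 for all genes tested. That setting was chosen after seeing the data and takes the lone KO library to vary like the WT libraries.

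In MEFs the 1 member called was Taf7, which was higher in the libraries labelled KO. It again makes 1.72% of the members, against 9.41% of the 15958 genes tested, 5.01% higher and 4.39% lower. With the thresholds of the study, applied to the edgeR p-values, 1 member and 7.6% of all genes were called. At an unadjusted p under 0.05 there were 13 members. DESeq2 called 10 of the 58 members, 7 higher and 3 lower. Of the 15958 genes tested it called 3936, 1723 higher and 2213 lower. The median log2 fold change of the members was 0.05, against −0.06 over all genes, and 33 of 58 were above 0. Upper-quartile normalisation moved the median of all genes from −0.06 to −0.17 and that of the members to −0.06.

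Taf7 had 10.7, 10.48 and 9.35 CPM in the WT MEF libraries. The libraries labelled KO had 23.6, 31.7 and 19.2 CPM. The lowest of them was clearly above the highest WT library, at a log2 fold change of 1.27 ± 0.28 and an adjusted p of 0.0404. The call was kept with the replicate number as a block (1.24, adjusted p = 0.0398), where Med16 was called too (−1.41, adjusted p = 0.0479). With the GC correction the Taf7 difference was 0.73 with an adjusted p of 0.102, and without any 1 library other than KO replicate 3 it was not called (adjusted p up to 0.128).

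The ATAC-only members were all above 0 in MEFs, with a median of 0.45 over 5 and 0 called (2 at an unadjusted p under 0.05, and 1 by DESeq2). Zzz3 had 100.3, 74.1 and 79.4 CPM in WT libraries and 168, 209.9 and 127 CPM in those labelled KO (0.97 ± 0.25, adjusted p = 0.0562). Kat2b had 42.4, 20.5 and 23.5 CPM against 74.2, 77.1 and 49.8 CPM (1.19 ± 0.34, adjusted p = 0.072). The groups did not overlap in either gene, although WT replicate 1 of Kat2b came near the lowest library labelled KO. Kat2a had 44.4, 69.0 and 57.1 CPM in WT and 36.5, 42.3 and 51.2 CPM in labelled KO libraries, so the groups overlapped (−0.40 ± 0.24, adjusted p = 0.29). Yeats2, the YEATS-domain subunit of ATAC, was the lowest ATAC-only member at 0.07 ± 0.19 (adjusted p = 0.827), and Tada3, an adaptor of both acetyltransferase modules, the lowest of the shared members at −0.51 ± 0.27 (adjusted p = 0.234).

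SAGA-only members had a median of −0.00 in MEFs, and 0 of 8 were called by edgeR or DESeq2 (1 at an unadjusted p under 0.05). Tada1, a core subunit, was highest, with 21.1, 35.5 and 26.4 CPM in WT and 49.2, 59.0 and 35.0 CPM in labelled KO libraries (0.77 ± 0.28, adjusted p = 0.118). On this scale KO replicate 3 lay just under WT replicate 2, and on the scale of the MEF libraries alone just over it. Supt3, a histone-fold subunit that contacts TBP, was lowest, with 11, 26.4 and 14.5 CPM against 9.46, 9.39 and 14.0 CPM (−0.66 ± 0.40, adjusted p = 0.289), and its values overlapped. Taf9b, a TAF of both SAGA and TFIID, had the highest log2 fold change of any member, with 18.6, 10.54 and 11.8 CPM in WT and 42.1, 54.0 and 19.3 CPM in labelled KO libraries (1.47 ± 0.43, adjusted p = 0.0738). WT replicate 1 and KO replicate 3 of Taf9b differed by less than 1 CPM.

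TFIID-only members had a median of 0.25 in MEFs, and Taf7 was the 1 of 12 called. At an unadjusted p under 0.05 there were 4, and DESeq2 called 3 higher and 0 lower. All labelled KO libraries were above WT in 6 (50%, against 20% of all genes) and below WT in 1 (8.33%, against 19.8%). Taf4b, the paralogue of TAF4 known for its role in germ cells, had 6.53, 5.14 and 8.33 CPM in WT and 11.9, 16.5 and 13.0 CPM in labelled KO libraries (1.04 ± 0.33, adjusted p = 0.0878). Taf2, which contacts the initiator element, had 65.1, 44.1 and 61.4 CPM against 84.0, 94.5 and 86.6 CPM (0.62 ± 0.21, adjusted p = 0.105). Neither gene had overlapping groups. Taf8, which binds TAF10, was lowest, with 20.2, 24.9 and 16.5 CPM against 13.4, 13.7 and 16 CPM (−0.53 ± 0.27, adjusted p = 0.21).

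Of the 25 Mediator members 0 were called in MEFs (4 at an unadjusted p under 0.05, 4 by DESeq2, and Med16 with the replicate block), and their median was 0.04. The 6 tail members had a median of −0.44, with 5 below 0. Med16, a tail subunit, had 22.1, 46.8 and 44.2 CPM in WT and 10.4, 10.6 and 22.8 CPM in labelled KO libraries (−1.37 ± 0.44, adjusted p = 0.0922), so WT replicate 1 overlapped with KO replicate 3. Within each pair of the same number the library labelled KO was lower, and with the replicate block Med16 was called (−1.41, adjusted p = 0.0479). With the GC correction it had −0.51 (adjusted p = 0.224). In the kinase module, Med13 had 157, 65.6 and 111 CPM against 197, 254 and 135 CPM (0.79 ± 0.38, adjusted p = 0.198), and Med13l 119.9, 91.9 and 91.5 CPM against 46.4, 49.1 and 70.8 CPM (−0.88 ± 0.25, adjusted p = 0.0721). The Med13 groups overlapped and those of its paralogue Med13l did not. Med17, a scaffold of the head, was the highest head member (0.37 ± 0.19, adjusted p = 0.22), Med21 the highest middle member (0.55 ± 0.28, adjusted p = 0.222) and Med9 the lowest middle member (−0.64 ± 0.31, adjusted p = 0.192). Over all members, 14 (24.1%) had all labelled KO libraries above all WT libraries, against 20% of all genes, and 6 (10.3%) had them all below, against 19.8% of all genes.

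**Figure D1:**
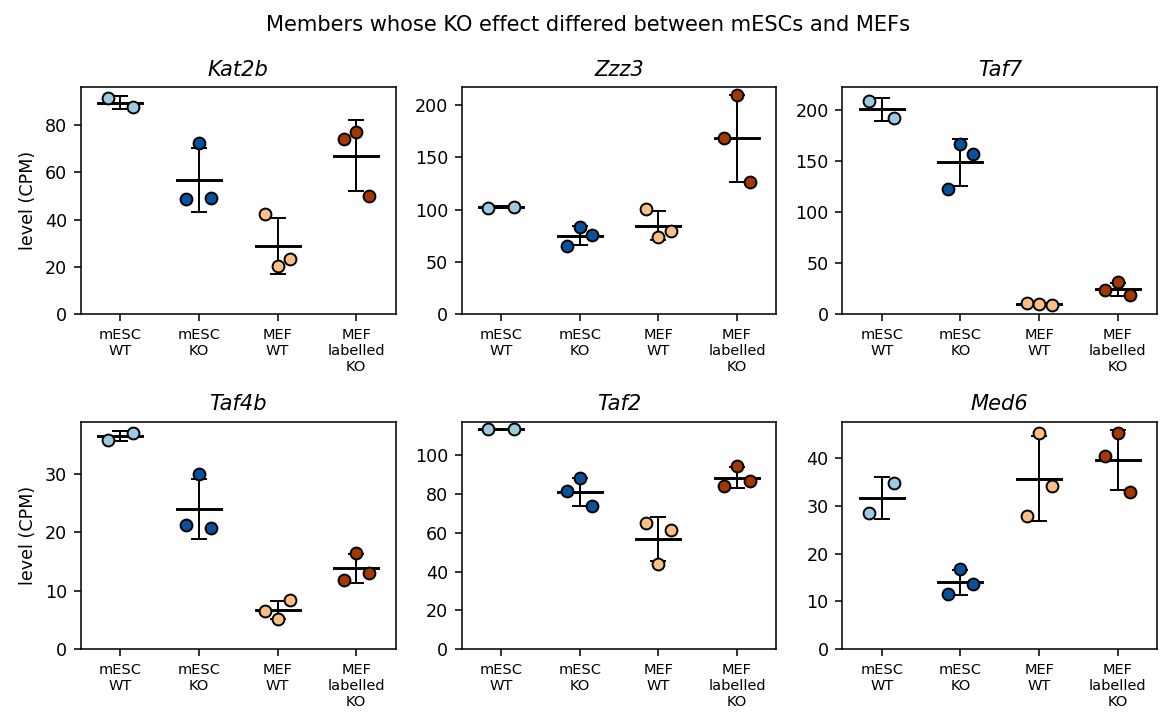
Levels (CPM, linear axes from 0) of Kat2b, Zzz3, Taf7, Taf4b, Taf2 and Med6 in the 11 libraries. Points are libraries, lines group means and bars SD. In each gene except Med6 the KO points lie below WT in mESCs and the labelled KO points above WT in MEFs, and the Med6 points overlap in MEFs.

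Whether the genotype difference itself depended on the cell type was tested by the interaction in 1 fit of the 11 libraries. It passed for 6 members, all with the MEF difference above the mESC difference: the acetyltransferase Kat2b, the ATAC subunit Zzz3, the TFIID subunits Taf7, Taf4b and Taf2, and Med6 of the Mediator head. They are 10.3% of the members, against 11.4% of the 19312 genes tested, 6.15% higher and 5.27% lower, so the share of called members was close to that of all genes. At an unadjusted p under 0.05 there were 20 members. DESeq2 called 12 of the 58 members, 11 higher and 1 lower. Of the 19312 genes tested it called 4290, 2075 higher and 2215 lower. The median over the members was 0.26, against −0.09 over all genes. The plot of levels by library shows the 6 genes.

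The interaction of Kat2b was 1.87 ± 0.45 (SE, log2) with an adjusted p of 0.0271. Taf7 had 1.72 ± 0.32 and the smallest adjusted p among the members, 0.0115. Taf4b had 1.65 ± 0.40 (adjusted p = 0.029). Each of these genes was lower in every KO mESC library than in the WT ones and higher in every labelled KO MEF library than in the WT ones. Zzz3 had 1.44 ± 0.32 (adjusted p = 0.0217). Taf2 had 1.12 ± 0.28 (adjusted p = 0.0299), from 114 and 114 CPM in WT mESCs to 81.6, 88.2 and 73.8 CPM in KO mESCs. Med6 had 1.32 ± 0.37 (adjusted p = 0.0453), with 27.8, 45.2 and 34.1 CPM in WT and 40.5, 45.3 and 32.8 CPM in labelled KO MEF libraries. Its difference lay in mESCs, since the MEF groups overlapped (0.13 ± 0.24, adjusted p = 0.731).

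With the replicate number as a block, Kat2b (adjusted p = 0.047) and Taf7 (adjusted p = 0.0319) were called in the interaction, and the other 4 were not. With the GC correction Kat2b (1.31, adjusted p = 0.0347) and Taf5l (1.36, adjusted p = 0.0347) were called, and with both Taf5l alone (1.44, adjusted p = 0.0459). When each library was left out in turn, Taf7 was called in 9 of 11 fits, Zzz3 in 8, Taf4b in 6, Taf2 in 5, Kat2b in 4 and Med6 in 3. None of the 6 was called without mESC WT replicate 1 or without mESC WT replicate 2, where 0 members were (12 and 14 at an unadjusted p under 0.05).

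**Figure D2:**
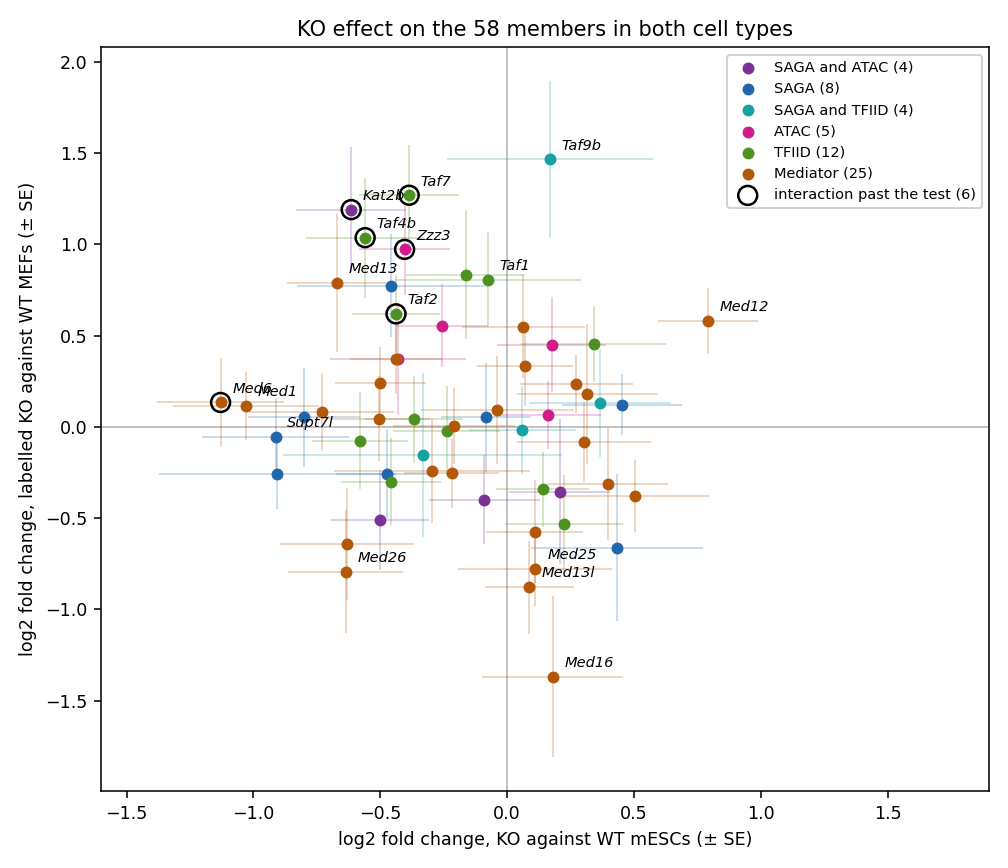
Log2 fold change of the 58 members in mESCs (horizontal axis) and in MEFs (vertical axis), coloured by complex, with bars of 1 SE. Rings mark the 6 members with an interaction past the test, and 22 members lie in the upper left part, lower in KO mESCs and higher in labelled KO MEFs.

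Side by side, 22 members were below 0 in mESCs and above 0 in MEFs, 12 were the other way round, 11 were above 0 in both and 13 were below 0 in both, as the plot of both fold changes shows. Spearman's rho over the 58 members was −0.12. In 7 members all KO libraries were below WT in mESCs and all labelled KO libraries above WT in MEFs, and in 0 members the reverse held. These counts were drawn from 26 members all below in mESCs and 14 all above in MEFs, and for the reverse from 6 and 6. The same count over all genes was not made, so the 7 and 0 do not show that the directions were linked. All KO libraries were above WT in both cell types for 2 members, Taf13 and Med12, and below WT in both for 2, Tada2b and Med26. These 4 were picked after their values were seen, and none was called in either cell type.

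The promoters of Kat2b, Zzz3 and Med6 are shown because these genes carried the interaction and RefSeq promoters could be matched to them. A promoter here is the stretch from 250 bases before to 50 bases after the RefSeq gene start on GRCm38.p6, written 5′ to 3′ on the gene's strand, and 51 of 58 members were matched. Short runs of letters were searched on both strands, and capitals mark the matches. These were TATAAA for the TATA box and the letters of the CCAAT box. For the GC box GGGCGG was used. The ETS family was searched as CCGGAAG. Part of the NRF1 site was searched as TGCGCA. For YY1 it was AAGATGG. Kat2b lies at chr17:53566721-53567020 on the plus strand, Zzz3 at chr3:152395223-152395522 on the plus strand and Med6 at chr12:81594959-81595258 on the minus strand.
Kat2b: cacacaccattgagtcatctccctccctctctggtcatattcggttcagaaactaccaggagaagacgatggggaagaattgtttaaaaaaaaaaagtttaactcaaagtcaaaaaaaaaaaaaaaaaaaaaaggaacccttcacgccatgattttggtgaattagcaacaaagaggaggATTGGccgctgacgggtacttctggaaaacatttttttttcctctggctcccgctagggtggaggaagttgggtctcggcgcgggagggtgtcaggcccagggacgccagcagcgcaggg
Zzz3: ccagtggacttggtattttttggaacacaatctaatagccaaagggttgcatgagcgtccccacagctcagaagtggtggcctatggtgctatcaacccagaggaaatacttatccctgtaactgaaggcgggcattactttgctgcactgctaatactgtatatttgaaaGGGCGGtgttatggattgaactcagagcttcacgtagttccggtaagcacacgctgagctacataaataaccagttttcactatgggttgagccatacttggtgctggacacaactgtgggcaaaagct
Med6: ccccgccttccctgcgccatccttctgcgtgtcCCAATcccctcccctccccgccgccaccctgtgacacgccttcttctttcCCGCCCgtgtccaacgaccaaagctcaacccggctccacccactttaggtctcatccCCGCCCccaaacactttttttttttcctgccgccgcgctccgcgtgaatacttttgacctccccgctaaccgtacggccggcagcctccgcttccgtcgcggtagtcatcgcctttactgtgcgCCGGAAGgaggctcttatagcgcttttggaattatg
The Kat2b promoter held 1 CCAAT box and 11 CG dinucleotides, and that of Zzz3 1 GC box and 6 CG dinucleotides. In the Med6 promoter there were 1 CCAAT box, 2 GC boxes, 1 ETS match and 28 CG dinucleotides. No match overlapped another in these 3 promoters. The median was 22 CG dinucleotides over the member promoters and 7 over all 32851 promoters. A GC box was found in 35 member promoters (68.6%, against 35.7% of all promoters), an ETS match in 16 (31.4% against 8.86%), the NRF1 letters in 13 (25.5% against 7.76%) and YY1 letters in 8 (15.7% against 6.34%). A CCAAT box was found in 17 (33.3% against 37.4%) and a TATA box in 4 (7.84% against 13.6%). The 32851 promoters were not limited to genes tested here and were not matched to the members in CG dinucleotides. These differences are therefore not shown to be particular to the 4 complexes. A match is a run of letters and was not shown to be bound.

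The MEF differences of the members followed the GC content of their transcripts. GC content, as the median over a gene's GENCODE M21 transcripts, ran from 39.6% in Taf7 to 60.5%, with a median of 49.4%. Spearman's rho between GC content and the MEF log2 fold change was −0.70 over the 58 members and −0.39 over all genes tested. The 29 members of lower GC content had a median of 0.37 with 24 above 0, and the 29 of higher GC content a median of −0.26 with 9 above 0. After a lowess correction of each library's log2 levels for GC content, the medians were 0.02 with 15 above 0 and 0.04 with 16 above 0, and rho was −0.01. In mESCs rho was 0.18 over the members and 0.17 over all genes. For the interaction it was −0.64 over the members and −0.34 over all genes, and the 6 called members all had a GC content under the median of the members: 39.6% in Taf7, 43.7% in Med6, 43.8% in Taf2, 43.8% in Zzz3, 44.2% in Kat2b and 45.7% in Taf4b. The points in these correlations share the libraries and the normalisation, and which step gave rise to the relation was not tested.

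**Figure D3:**
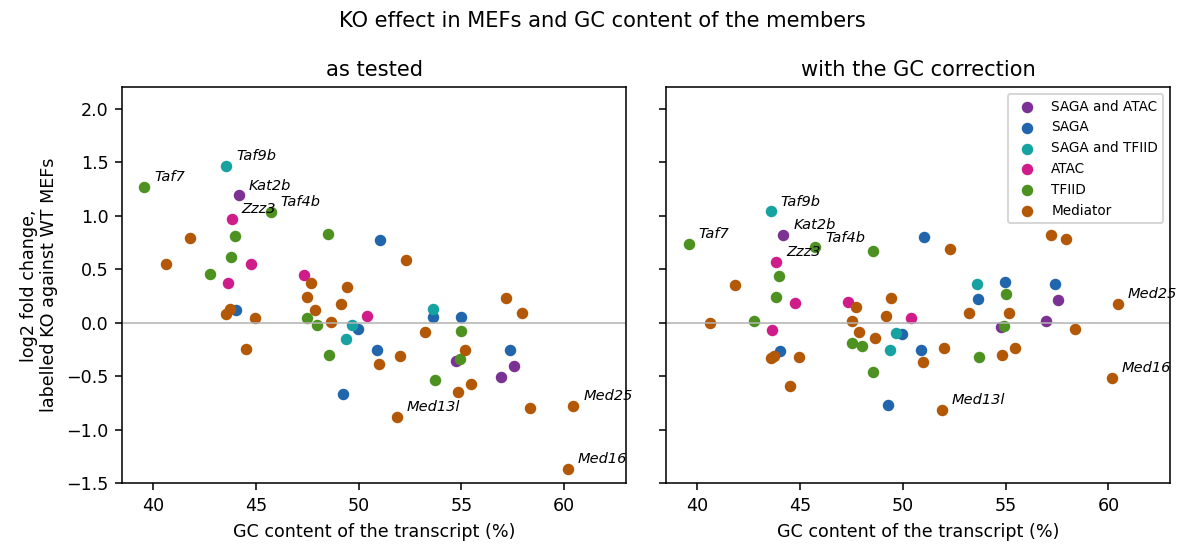
MEF log2 fold change of the 58 members (vertical axis) against the GC content of their transcripts in percent (horizontal axis), as tested (left) and with the GC correction (right). Points are genes coloured by complex, and the slope of the left panel (Spearman −0.70) is absent from the right panel (−0.01).

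Members with a paralogue were set against each other as the share of the first gene in the pair's summed level per kb, using the union of exons as length, since a share per deposited median transcript length differed widely for pairs such as Kat2a and Kat2b. Kat2a made up 74.2% ± 1.86 (SD, n = 2) of its pair in WT mESCs and 80.1% ± 5.54 (n = 3) in KO mESCs. In MEFs it made up 73.0% ± 12.1 (n = 3) in WT and 47.7% ± 9.86 (n = 3) in labelled KO libraries. The 3 labelled KO libraries had 40.7%, 43.4% and 59.0%, below the WT values of 59.4%, 82.5% and 77.2%, with KO replicate 3 and WT replicate 1 next to each other. With the deposited median lengths, which are short for Kat2b, the same shares were 23.3%, 30.7%, 24.3% and 9.15%, so which of the 2 acetyltransferase RNAs was in excess depended on the length used, and the lower mean share in labelled KO MEFs did not. The share was not corrected for GC content: with that correction the MEF log2 fold changes were 0.21 for Kat2a and 0.82 for Kat2b, in place of −0.40 and 1.19.

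Med13 made up 61.7% ± 1.02 of its pair with Med13l in WT mESCs and 48.6% ± 5.38 in KO mESCs. In MEFs its share was 59.6% ± 8.01 in WT and 82.3% ± 8.12 in labelled KO libraries. The groups did not overlap in either cell type, and the directions were opposite. The MEF log2 fold changes with the GC correction were 0.35 for Med13 and −0.81 for Med13l, in place of 0.79 and −0.88. Taf4 had 62.1% ± 1.40 and 62.0% ± 2.85 of its pair with Taf4b in WT and KO mESCs, and 77.3% ± 1.71 and 60.8% ± 2.21 in WT and labelled KO MEFs. With the GC correction the MEF log2 fold changes were 0.27 for Taf4 and 0.70 for Taf4b, in place of −0.08 and 1.04. Taf6 had 65.4% ± 0.199 and 74.3% ± 0.608 of its pair with Taf6l in WT and KO mESCs, and 62.9% ± 7.59 and 61.5% ± 1.38 in MEFs. Tada2a had 88.5% ± 2.36 and 94.4% ± 2.36 of its pair with Tada2b in mESCs, and 52.2% ± 7.52 and 64.4% ± 3.11 in MEFs. Taf5 had 36.6% ± 5.27 and 46.8% ± 6.63 of its pair with Taf5l in mESCs, and 21.5% ± 4.01 and 31.5% ± 8.45 in MEFs. Taf9 had 13.2% ± 1.11 of its pair with Taf9b in WT mESCs and 3.24% ± 1.02 in WT MEFs. These Taf9 shares are uncertain, since 73.8% of its exonic bases are shared with Ak6 on the same strand. Reads there can be left uncounted, which would make the share too low. With 3 libraries against 3, or 2 against 3, the smallest two-sided p an exact permutation test can give is 0.1, and the shares are given as a description and were not tested.

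**Figure D4:**
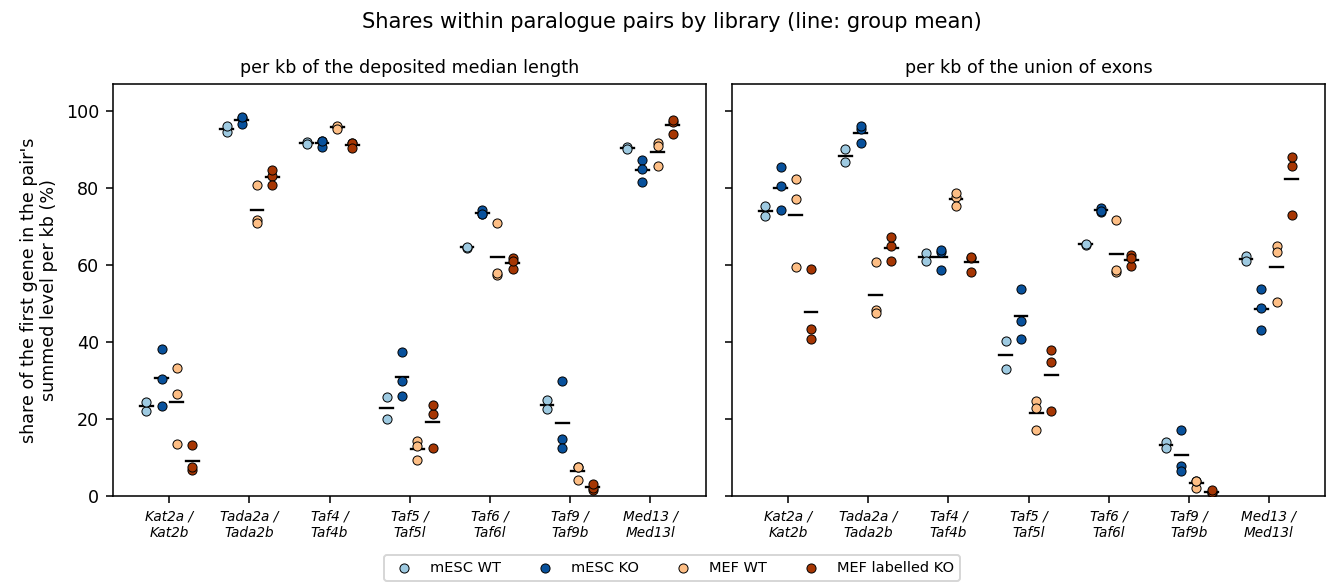
Share (%) of the first gene in the summed level per kb of 7 paralogue pairs, with the deposited median transcript length (left) and the union of exons (right). Points are libraries and lines group means, and the Med13 share is lower in KO than WT mESCs and higher in labelled KO than WT MEFs in both panels.

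Taf9b, Taf1, Med14 and Med12 lie on the X chromosome, and the libraries differed in sex-linked RNA. The 4 Y-linked genes Ddx3y, Uty, Kdm5d and Eif2s3y were low in mESC KO replicates 1 and 2, and Kdm5d also in KO replicate 3 (0.584 CPM). MEF WT replicate 3 had Xist at 335.5 CPM and the 4 Y-linked genes at 0 to 0.463 CPM. In the MEF libraries labelled KO, Ddx3y had 201 to 269 CPM. X-linked genes had a median log2 fold change of 0.47 in mESCs, against 0.03 for autosomal genes, and of 0.15 in MEFs, against −0.06. Med12, the kinase module subunit that activates its cyclin-dependent kinase, had 61.4 and 65.7 CPM in WT and 104, 125 and 90.1 CPM in KO mESC libraries (0.79 ± 0.20, adjusted p = 0.0547). In MEFs it had 52.8, 47.0 and 50.4 CPM in WT and 69.3, 84.6 and 73.3 CPM in labelled KO libraries (0.58 ± 0.18, adjusted p = 0.0841). All KO libraries were above WT in both cell types, with KO replicate 3 the lowest of the KO mESC libraries. Taf1, the largest TAF, had 130.3 and 184 CPM in WT and 146, 210.0 and 78.5 CPM in KO mESCs. Med14, the backbone of Mediator, had 42.5 and 48.3 CPM in WT and 36.7, 53.1 and 18.1 CPM in KO mESCs. In both genes KO replicate 3 was the lowest and KO replicate 2 the highest of the 5 libraries. Sex-linked RNA and genotype cannot be fully told apart in mESCs or in MEFs. Without genes on X and Y, 1 member was called in mESCs, 1 in MEFs and 6 in the interaction, as before. The members called there are autosomal and the libraries stay the same, so this setting does not remove a sex difference in autosomal genes.

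WT MEFs were compared with WT mESCs to see how the make-up of the complexes differs between the 2 cell types. Of 58 members 31 were called, 28 lower and 3 higher in MEFs. This is 53.4% of the members, 48.3% lower and 5.17% higher, against 54% of the 19312 genes tested, 27.1% lower and 26.8% higher. The overall share was that of all genes, and the split between the directions was not. The median over the members was −0.56, against −0.01 over all genes, and 14 of 58 were above 0. Cell type, medium and any processing batch cannot be told apart in this comparison, and the difference is relative to the total of each library.

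The 12 TFIID-only members had a median of −1.04, with 10 called lower and 1 higher. Taf7 had a log2 fold change of −4.30 ± 0.25 (adjusted p = 2.06e-06), the largest of any member, from 209 and 193 CPM in WT mESCs to the 9.35 to 10.7 CPM of WT MEFs. Taf4b fell by 2.45 on the log2 scale (SE 0.30, adjusted p = 0.000112). Taf5, a scaffold of the TFIID lobes, had 36 and 36.4 CPM in WT mESCs and 5.86, 7.98 and 6.26 CPM in WT MEFs (−2.43 ± 0.33, adjusted p = 0.000182). The cell types were far apart in these 3 genes. Taf4 had −1.41 ± 0.25 (adjusted p = 0.000854) and Taf3, the TAF that reads trimethylated histone H3 lysine 4, −1.21 ± 0.22 (adjusted p = 0.0012). Taf13 was the 1 TFIID member called higher, with 10.4 and 12 CPM in WT mESCs and 24.5, 20.5 and 24.1 CPM in WT MEFs (1.04 ± 0.25, adjusted p = 0.00601). Of the 4 TAFs shared with SAGA 0 were called (2 at an unadjusted p under 0.05, and 1 by DESeq2), and Taf12 had 33.6 and 37.6 CPM in WT mESCs and 27.7, 45.6 and 32.1 CPM in WT MEFs (−0.02 ± 0.25, adjusted p = 0.955).

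All 4 subunits shared by SAGA and ATAC were called lower in MEFs, with a median of −1.58. Kat2a had 175 and 192 CPM in WT mESCs against 44.4 to 69.0 CPM in WT MEFs (−1.69 ± 0.25, adjusted p = 0.000296). Kat2b had −1.63 ± 0.33 (adjusted p = 0.00213) and Sgf29 −1.52 ± 0.33 (adjusted p = 0.00323). Tada3 fell by 0.80 (SE 0.26, adjusted p = 0.0247). Tada2a, the ADA2 adaptor particular to ATAC, had 116 and 126 CPM in WT mESCs and 20.6, 32.6 and 21.1 CPM in WT MEFs (−2.29 ± 0.27, adjusted p = 7.86e-05). Its SAGA paralogue Tada2b had 22.4 and 17.6 CPM against 28.05, 26.6 and 29.8 CPM and did not pass (0.49 ± 0.42, adjusted p = 0.337). Of 8 SAGA-only members 3 were called lower, Taf5l among them (−1.35 ± 0.27, adjusted p = 0.00221), and 1 higher, Tada1 (1.13 ± 0.37, adjusted p = 0.0232).

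Mediator had a median of −0.35 over 25 members, with 9 called lower and 1 higher, Med22 (0.52 ± 0.20, adjusted p = 0.0451), which was called under 2 of the 10 alternatives other than the 2-fold rule. Med18, a subunit of the head, had 12 and 14 CPM in WT mESCs and 2.52, 3.87 and 3.7 CPM in WT MEFs (−1.95 ± 0.34, adjusted p = 0.000891). Med19, a middle subunit that contacts the polymerase, had 91.9 and 74.4 CPM against 32.2, 24.7 and 29.2 CPM (−1.53 ± 0.23, adjusted p = 0.000324). Neither gene had overlapping groups. The backbone Med14 went the other way in value, with 42.5 and 48.3 CPM in WT mESCs and 113, 55.8 and 101 CPM in WT MEFs, and did not pass (0.99 ± 0.41, adjusted p = 0.062). With the rule of a 2-fold change, 18 members were called, 16 lower and 2 higher. Leaving out 1 library at a time gave 17 to 32 called members, with 17 without mESC WT replicate 2. Under the 10 alternatives other than the 2-fold rule and without any 1 library, 16 members were called, all lower in MEFs, Taf7, Taf4b, Taf5, Tada2a and Kat2a among them. Of these 16, Taf2 (−0.999) and Med17 (−0.83), picked after their values were seen, differed by less than 2-fold.

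**Figure D5:**
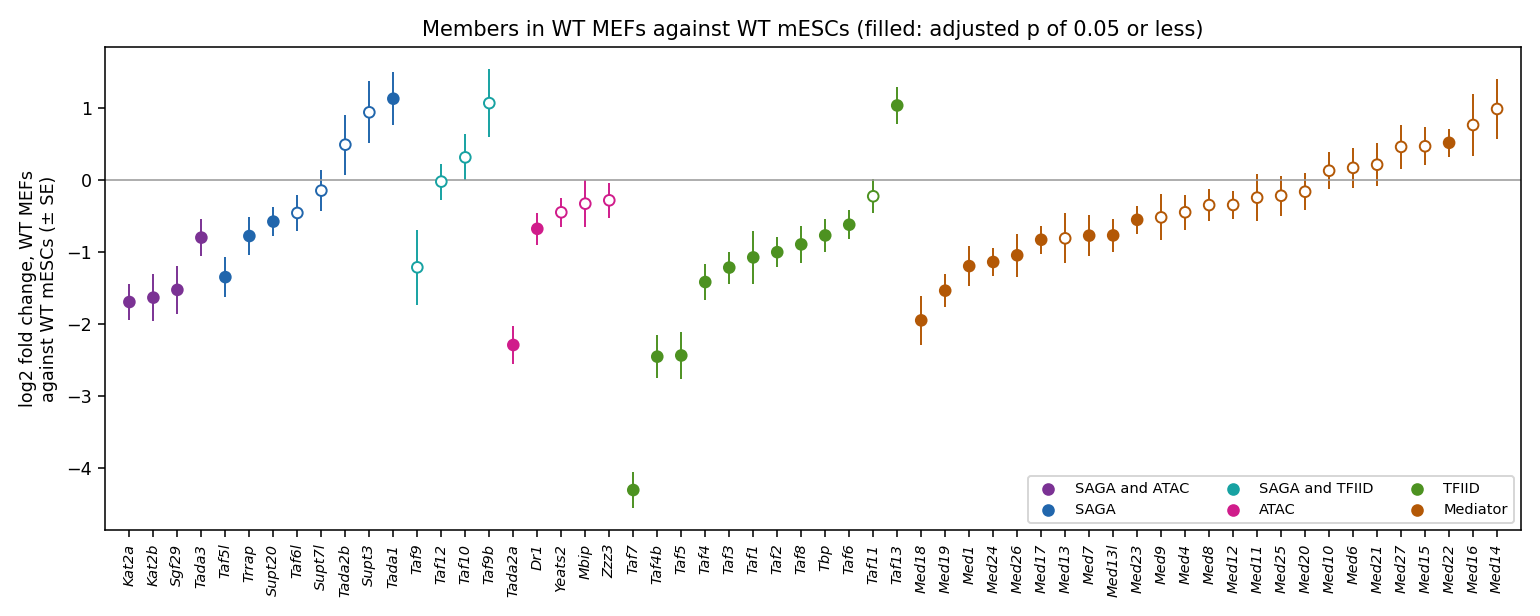
Log2 fold change of the 58 members in WT MEFs against WT mESCs (vertical axis, bars are 1 SE), grouped and coloured by complex. Filled points passed the test, and 28 of them lie below 0 and 3 above 0, with Taf7 at −4.30 the lowest.

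Levels between genes were compared per kb. Per kb of the union of exons, Taf7 (60.9 CPM per kb), Kat2a (52.8) and Tada2a (40.7) stood highest in WT mESCs, and the median member had 11.1 CPM per kb. In WT MEFs, Med6 (24.7 CPM per kb), Med22 (22.6) and Dr1 (16.9) stood highest, over a median of 7.58 CPM per kb. Taf7, first in mESCs, was not among the 3 highest in MEFs. Per kb of the deposited median transcript length, Med13 stood highest in both, at 304 CPM per kb in WT mESCs and 174 in WT MEFs. Spearman's rho between the orders by both lengths was 0.71 in WT mESCs and 0.59 in WT MEFs. Taf9 was the lowest member with both lengths in every group, at 0.781 and 0.555 CPM in WT mESCs and 0.265, 0.281 and 0.317 CPM in WT MEFs, and shares 73.8% of its exonic bases with Ak6 on the same strand. Reads in shared bases can be left uncounted, so its level is uncertain. In 24 members exonic bases overlap a gene on the opposite strand, over 10% of them in 14 members, and the strand setting of the counting was not given.

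Further genes of the transcription machinery, 55 in all, were counted beside the members. In mESCs 2 of 54 tested were called, both lower: Sf3b3, a splicing factor subunit also found in SAGA, with 506 and 524 CPM in WT and 203, 244 and 195 CPM in KO libraries (−1.22, adjusted p = 0.0221), and Gtf2h3 of TFIIH, with 50.4 and 60.6 CPM against 29.2, 33.7 and 28 CPM (−0.82, adjusted p = 0.0499). In MEFs 1 of 53 was called, Ccnh, the cyclin of the TFIIH kinase, with 30.9, 40.5 and 36.1 CPM in WT and 105, 59.4 and 71.3 CPM in labelled KO libraries (1.11, adjusted p = 0.0442). No values overlapped in these 3 genes. By list, the genotype comparisons called 0 of 8 further Mediator genes, 0 of 13 RNA polymerase II subunits and 0 of 8 DUB module genes in either cell type (3, 3 and 1 at an unadjusted p under 0.05 in mESCs, and 3, 2 and 2 in MEFs). The interaction was called for 6 of 54, all higher: Cdk19, Sf3b3, and the general transcription factor genes Gtf2a1, Gtf2b, Gtf2h3 and Cdk7. Of all genes tested, 6.96% were called in mESCs, 9.41% in MEFs and 11.4% in the interaction, so the last count was close to that share. Between the WT cell types 7 of 54 were called higher and 19 lower in MEFs, against 26.8% and 27.1% of all genes tested. Among the 17 general transcription factor genes these were 1 and 9, and among the 13 polymerase subunits 1 and 4.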

How the data were processed

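RNA from mESCs and MEFs was sequenced from poly(A) libraries made with a stranded kit. Per the labels and the study's methods, the authors used bcl2fastq 2.17.1.14, cutadapt 1.10, STAR 2.5.3a on mm10, HTSeq 0.6.1p1 and DESeq2 1.16.1. The deposited tables hold raw counts per gene (used here) and normalised counts per kb of the gene's median transcript length, a signal used only for the threshold of 10 reads per kb. The strand setting of the counting was not given in the sources used here. The deposited tables also hold the authors' own log2 fold changes with p-values and adjusted p-values, and an unnamed MEF column that equals the median of the per-kb values, none of which was used. The study left out a further WT mESC dataset after a principal component analysis, in which it stood apart from the other replicates. That dataset was not analysed here. The spread between the 2 WT mESC libraries kept may therefore be too small, which was not tested.

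The counts were tested with edgeR 4.0.16 in R 4.3.3 (TMM, filterByExpr, quasi-likelihood test), with mESCs and MEFs each fitted alone, and with 1 fit of 11 libraries for the interaction and the cell type comparison. SE is the log2 fold change divided by the square root of F. Every table-wide p was adjusted over all genes tested. All 58 members passed the filter in each fit. Alternatives were other normalisations and filters, DESeq2 1.42.0, a replicate block, a lowess correction for GC content (span 0.3), left-out libraries and left-out X and Y genes. Replicate numbers were taken to pair MEF libraries, since the deviations of same-numbered libraries from their group means correlated at 0.473, 0.161 and 0.240. In mESCs, with 2 pairs (0.008 and −0.17), they were not. The main fits held no replicate block, so the main MEF and interaction values do not use the pairing. With the block, 2232 of 15958 genes tested were called in MEFs, in place of 1501. In the interaction 1380 of 19312 were called with it, in place of 2205. The tests were checked on simulated counts with 50 genes changed at each of 1.5-, 2-, 4- and 8-fold. Nearly all 2-fold changes were missed there in each comparison. Many more genes were called in the data (1238 in mESCs), which makes the adjustment less strict. The simulation therefore does not give the share of changes that these tests miss. A small count of calls does not show that the other members did not change.

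The members and lists were chosen with earlier results of these data known. Named genes are members past the threshold in a genotype comparison or the interaction, the 12 largest called cell type differences, the highest and lowest member of each complex or module in each genotype comparison, paralogue pairs, X-linked members, levels per kb at either end, and listed related genes that passed. Related lists were further Mediator, SAGA and ATAC related, RNA polymerase II, general transcription factor and DUB module genes. A few genes added as examples were picked after their values were seen.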

Additional observations from a re-analysis of the deposited data

Results flagged for a closer look

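For 6 members the difference between KO and WT libraries depended on the cell type by the interaction term in 1 fit of 11 libraries (edgeR's quasi-likelihood test, adjusted p of 0.05 or less). On the log2 scale the MEF difference exceeded the mESC difference by 1.87 in Kat2b, 1.44 in Zzz3, 1.12 in Taf2, 1.65 in Taf4b, 1.72 in Taf7 and 1.32 in Med6. In Kat2b, Zzz3, Taf2, Taf4b and Taf7 every KO mESC library was below both WT mESC libraries and every MEF library labelled KO was above the WT MEF libraries. In Med6 the MEF groups overlapped. Kat2b and Taf7 stayed called with the replicate block and Kat2b with the GC correction. All 6 transcripts are below the members' median GC content of 49.4%, and the part of GC content, of Atxn7l3 RNA left in the MEF libraries labelled KO and of the mesothelial RNA in them was not tested.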

How the results depend on the processing

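Without KO replicate 3 the 1 member called in mESCs was not Med6 but Med12, which was higher. No called member changed sign under an alternative. In mESCs, where 1 member was called, there were 4 without a filter and 9 with DESeq2. There were 2 with the GC correction and 0 in 1 fit of all 11 libraries. Of all genes tested, 1238 were called in mESCs, and 2995, 3436, 1288 and 446 under these settings in turn. The setting without mESC KO replicates 1 and 2 was added after seeing the data. In MEFs, where 1 was called, upper-quartile normalisation gave 2, no filter 2, DESeq2 10, the GC correction 0 and 1 fit of all 11 libraries 9. Of all genes tested, 1501 were called in MEFs, and 1453, 1896, 3936, 1223 and 3571 under these settings in turn. The interaction, with 6, gave 12 with DESeq2 and 2 with the GC correction, against 2205, 4290 and 1673 of all genes tested. The cell type comparison, with 31, gave 18 with the 2-fold rule. The causes were not tested, except that the joint fit shares 1 spread between cell types. Leaving out 1 library at a time gave 0 to 4 called members in mESCs, 0 to 5 in MEFs, 0 to 11 in the interaction and 17 to 32 in the cell type comparison.

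With the replicate block, 0 members were called in mESCs (Med6 at an adjusted p of 0.055), 2 in MEFs, 2 in the interaction and 24 in the cell type comparison, and with the block and GC correction 1, 0, 1 and 32. In mESCs the numbers are not shown to pair the libraries. At an unadjusted p under 0.05, the mESC block had 5 members, the mESC joint fit 13 and the MEF GC correction 11. In mESCs 3 of all 17530 genes tested were called without KO replicate 1, 0 of 18568 without WT replicate 1 and 0 of 18748 without WT replicate 2, which leave 1 WT library (8, 4 and 7 members at an unadjusted p under 0.05), so lost calls in those fits say little. All members passed the filter, Taf9 with the fewest counts (0.209 to 0.781 CPM), and the 2 WT mESC libraries limit the precision.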
